A study of Mus musculus with 4 samples.

Results

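Transcripts of 10 genes of integrin-based cell adhesion were followed in libraries labelled as MLE-12 with and without 1-nitropyrene, a nitrated polycyclic hydrocarbon of diesel exhaust. The genes were the integrin subunits Itgb1 and Itgb4, talin (Tln1), vinculin (Vcl), the integrin-linked kinase gene Ilk, beta-parvin (Parvb), paxillin (Pxn), zyxin (Zyx), focal adhesion kinase (Ptk2) and caveolin (Cav1), 10 of 53465 gene identifiers in the table of read counts. They were chosen by name, with their treated-against-control differences in these 4 libraries already known, so those differences are given as a description. Calls and intervals printed for them below belong to that description. They are no test of these genes and no support for a difference. Polyadenylated RNA was sequenced from 2 control libraries (replicates 1 and 2, cells kept without 1-nitropyrene) and 2 treated libraries (replicates 2 and 3, 5 µM 1-nitropyrene), both for 12 h. MLE-12 is an immortalized mouse lung epithelial line, derived from lung tumours of mice that carry a viral large T antigen under the surfactant protein C promoter. That origin is the label's for all 4 libraries, and a carrier solvent for the controls is not given in the sources used here.

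Integrins are receptors made of an alpha and a beta chain that bind matrix proteins outside the cell. Inside, talin binds the beta tail and switches the receptor on, and vinculin strengthens the link from talin to actin. Ilk joins with a PINCH protein and a parvin into a complex at the beta tail, paxillin is a scaffold that recruits signalling proteins, focal adhesion kinase passes the signal on with Src, and zyxin gathers at adhesions under tension. Itgb4 pairs with Itga6 in hemidesmosomes, which anchor epithelium to laminin through keratin filaments, and Cav1 forms the coat of caveolae together with cavins. In lung epithelium these receptors hold cells to the basement membrane and sense stretch.

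The libraries held 6908055 to 10773733 counts. Values below, unless stated otherwise, are CPM after TMM scaling, which brings the counts of all libraries to 1 size, with n = 2 libraries per group. Whether the libraries are separate cultures is not stated in the labels. The p-values of the edgeR fit therefore rest only on spread between libraries, which may be technical. That spread was estimated over all genes, so a gene's own replicate spread does not enter its p. The labelled cell type was checked against its markers. All 11 epithelial markers, among them Cdh1, Epcam, Krt8 and Krt18, had 0 counts in every library, which allows up to 0.434 CPM in the shallowest one at a limit of 3 counts. Read as they stand, these counts go against the epithelial label, and the libraries are called MLE-12 only as labelled. Sharpin and Creb3, which are on none of the marker lists, also had 0 counts in every library. Whether a count of 0 here reflects the cells or the table was not tested. Of 10 alveolar type 2 markers 6 had no count either, including Sftpb and Nkx2-1. Sftpc had 1 count and Lamp3 2, in control replicate 1 only, and neither was tested. The lipid transporter Abca3 and Lpcat1 were tested and not called. Markers of platelets were at 0, and those of endothelium and leukocytes summed to at most 0.368 and 0.43 CPM. Of the fibroblast and mesenchymal markers 11 of 12 had counts and 3 were tested: Vim rose (log2 difference 0.23), Acta2 was called lower (-1.77) with groups that overlapped (3.31 and 1 CPM without and 1.38 and 0 CPM with 1-nitropyrene) and Pdgfra was not called, with Vim and Acta2 named after their values were seen. Those other than Vim (10 of 11 with counts) summed to 11.6 and 5.88 CPM in control replicates 1 and 2 and to 3.34 and 1.06 CPM in 1-nitropyrene replicates 2 and 3.

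Sequences upstream of the start sites were read for the members that have an entry in RefSeq's table for GRCm38.p6, which were 7 of 10 (not Pxn, Itgb4 and Ptk2). The 250 bases before the start were searched on both strands for motifs of factors known from adhesion genes and for the core motif of the Ah receptor. These were the CArG box of serum response factor, GGAATG of the TEAD factors, TGANTCA of AP-1, GCGTGGGCG or GCGGGGGCG of the EGR family and the core GCGTG of the Ah receptor. Here 3 windows are shown, 5′ to 3′ on the gene's strand, because they hold the matches (in capitals) or, for Cav1, belong to the well-counted member with a window that differed most and hold no match. They lie at chr14:20929148-20929397 (Vcl, plus strand), chr8:128685404-128685653 (Itgb1, plus strand) and chr6:17306085-17306334 (Cav1, plus strand).
Vcl: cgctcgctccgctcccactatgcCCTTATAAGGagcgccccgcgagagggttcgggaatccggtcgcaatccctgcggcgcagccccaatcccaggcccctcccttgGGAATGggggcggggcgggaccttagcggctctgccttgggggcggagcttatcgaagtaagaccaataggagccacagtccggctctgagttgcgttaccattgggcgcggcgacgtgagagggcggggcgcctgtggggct
Itgb1: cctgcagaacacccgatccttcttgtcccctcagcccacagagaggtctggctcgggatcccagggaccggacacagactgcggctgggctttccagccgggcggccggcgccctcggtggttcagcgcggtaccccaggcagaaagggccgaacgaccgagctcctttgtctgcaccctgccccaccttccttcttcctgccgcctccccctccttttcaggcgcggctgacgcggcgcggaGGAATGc
Cav1: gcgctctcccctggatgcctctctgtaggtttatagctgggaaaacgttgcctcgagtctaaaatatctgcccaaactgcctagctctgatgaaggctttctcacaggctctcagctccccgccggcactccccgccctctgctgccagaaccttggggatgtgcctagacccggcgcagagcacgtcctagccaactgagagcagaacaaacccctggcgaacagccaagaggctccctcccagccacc

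The Vcl window held a CArG box, CCTTATAAGG, at 227 to 218 bases before the start, and a TEAD motif at 143 to 138 bases. A CArG box was found in 1.47% of all 32851 windows of the table and in 1 of the 7 members, and GGAATG in 12.6% of all windows and in Vcl and Itgb1. The Itgb1 match lay 7 to 2 bases before the start. The Zyx window held the AP-1 motif as TGAGTCA, 121 to 115 bases before RefSeq's start (6.75% of all windows), and an EGR motif as GCGGGGGCG at 14 to 6 bases (3.06%). That start, 42349828, lies downstream of the start GENCODE gives Zyx, 42349630, so both matches lie inside the gene as GENCODE annotates it, and this window is not shown. The core GCGTG was in 28.2% of all windows and in none of the 7. The windows of Parvb, Tln1, Ilk and Cav1 held none of the motifs. The motifs were picked with the windows in view, and a match is a description of letters only.

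Among the 10 genes, Tln1 and Itgb1 were higher in the treated libraries, by 20.9% and 8.93% in the fit. Pxn and Parvb were lower by 83.4% and 76.7%, at very low counts, and Itgb4 and Cav1 were lower by 39.7% and 34.4%. Vcl, Ilk and Zyx were lower by 8.69% to 12.2%, and Ptk2 was higher by 5.43%. No gene had treated and control libraries that overlapped: 3 were higher and 7 lower in both treated libraries, where 30.0% and 29.2% of all 7738 genes tested did so. As a count and not as a test of these genes, the fit across all genes placed 2 of the 10 past the threshold (adjusted p under 0.05, edgeR) as higher and 6 as lower, where 13.2% and 11.2% of all genes were called higher and lower, together 24.5%. Since the genes were listed with this contrast known, nothing is read from these shares. Of the 8 past the threshold, Itgb1 missed it without control replicate 1, Vcl without control replicate 1 or 1-nitropyrene replicate 2, Ilk with any 1 of the 4 libraries left out, Pxn without control replicate 2, and Parvb without either control or 1-nitropyrene replicate 2. The number called lower was then 3 to 5. In DESeq2 Itgb1, Vcl and Ilk were not called, and Pxn and Parvb had no adjusted p. Vcl and Ilk also missed the call without a filter on low counts, or at an adjusted p under 0.01. Zyx, not past the threshold, passed it as lower without scaling factors and with only genes of at least 10 CPM. The median log2 fold change of the 10 was -0.18, beside 0.00 over all genes tested. In bulk RNA, fewer cells of a type and less RNA per cell cannot be told apart.

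**Figure D1:**
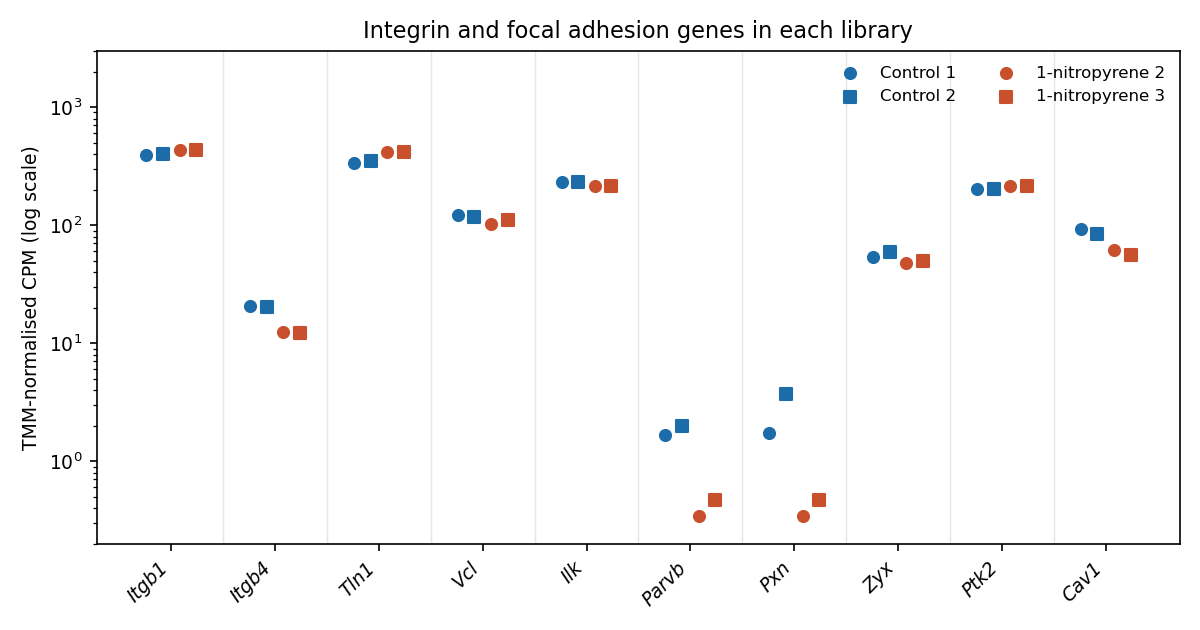
TMM-normalised CPM (log axis) of the 10 genes in each library, controls in blue and 1-nitropyrene in orange, with 1 symbol per library. Itgb1 and Tln1 lie between 338 and 430 CPM and higher in the treated libraries, while Pxn and Parvb lie below 4 CPM in every library and lowest in the treated ones.

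Itgb1 (ENSMUSG00000025809, GRCm38 chromosome 8, 128685654 to 128733200) encodes the beta chain shared by most matrix receptors. It had 390.6 and 398.4 CPM in control replicates 1 and 2 and 429 and 429.8 CPM in 1-nitropyrene replicates 2 and 3. The treated libraries lay together above both controls, by a log2 fold change of 0.12 (SE 0.04). As a ratio of treated to control this is 1.04 to 1.14 at the 95% level.

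Itgb4 (chromosome 11, 115974709 to 116008412), the hemidesmosome chain, stood at 20.6 and 20.2 CPM in control cells and at 12.4 and 12.2 CPM after 1-nitropyrene. The replicates of each group were close, and the groups stood apart by a log2 fold change of -0.73 (SE 0.15, ratio 0.489 to 0.743). The gene differed in the opposite direction to Itgb1. Its partner Itga6 was at 1.8 ± 0.316 CPM without and 1.75 ± 1.34 CPM with 1-nitropyrene (SD, n = 2, edgeR adjusted p = 0.928). Its log2 difference of -0.08 (SE 0.46) turned its sign when control replicate 1 or 1-nitropyrene replicate 2 was left out (0.14 and 0.54). An RNA on the opposite strand, B230344G16Rik, shares 537 bp of exon with Itgb4 and had 0 counts.

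Tln1 (chromosome 4, 43531519 to 43562691), the integrin activator, stood at 337.6 and 349.7 CPM in control cells and at 414.6 and 415.2 CPM after 1-nitropyrene. The log2 fold change was 0.27 (SE 0.04) and the ratio 1.15 to 1.27. This was the largest upward difference among the 10, and the 2 treated libraries differed by less than 1 CPM. The second talin gene, Tln2, was far below it, at 0.0122 of the Tln1 level per length in control and 0.0102 with 1-nitropyrene.

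Vcl (chromosome 14, 20929398 to 21033676), which binds stretched talin, stood at 122.9 and 118.2 CPM in control cells and at 103.1 and 110.8 CPM after 1-nitropyrene. The log2 fold change was -0.18 (SE 0.06), so Vcl and Tln1 lay on opposite sides of the controls. Leaving out 1 library moved the Vcl value between -0.23 (without 1-nitropyrene replicate 3) and -0.13 (without 1-nitropyrene replicate 2). Vcl shares 2090 of its 8191 bp of exon with Ap3m1 on the opposite strand, at 76.7 and 85.7 CPM in control cells and 77.5 and 83 CPM after 1-nitropyrene, whose groups overlapped.

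Ilk (chromosome 7, 105736592 to 105742925), the pseudokinase at the centre of its complex, stood at 234.1 and 231.6 CPM in control cells and at 212.8 and 212.7 CPM after 1-nitropyrene (log2 fold change -0.13, SE 0.04). The groups were separate, with a gap larger than the spread within either. Almost the whole of its annotated exon length, 2461 of 2744 bp, is shared with Taf10 and Rrp8 on the opposite strand. Taf10 stood at 275.5 and 273.3 CPM in control cells and at 285.7 and 293.3 CPM after 1-nitropyrene, in the direction opposite to Ilk (log2 fold change 0.08, adjusted p = 0.168, edgeR). The kit marks strand, but whether the counting used it is not known here, so that some reads of Ilk and Taf10 could be exchanged.

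Parvb (chromosome 15, 84232043 to 84315688), the parvin that binds Ilk and actin, was counted 18 and 14 times in control cells and 3 and 4 times after 1-nitropyrene. That is 1.66 and 2.01 CPM against 0.345 and 0.47 CPM, a control level 4.41 times the treated one with a 95% counting interval of 1.91 to 11.8. The interval is exact for the ratio of the summed counts. It covers counting error only: the labels name no molecular identifiers, and copies of 1 molecule may be counted more than once. Its relative Parva, which fills the same place in the complex, was at 89.4 ± 2.64 CPM and 89.7 ± 1.78 CPM (SD, n = 2, log2 difference 0.01 with SE 0.07, edgeR adjusted p = 0.948, a sign that turned without scaling factors, at -0.02). Per length, Parvb was at 0.047 of the Parva level in control and 0.0104 with 1-nitropyrene.

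Pxn (chromosome 5, 115506676 to 115555987), the adhesion scaffold, was counted 19 and 26 times in control cells and 3 and 4 times after 1-nitropyrene. The deeper control library held the fewer of the 2 control counts, so its controls differed from each other by over 2-fold (1.75 and 3.73 CPM), while the treated libraries had 0.345 and 0.47 CPM. The control level was 6.2 times the treated one, with a counting interval of 2.77 to 16.3. The fitted log2 fold change was -2.59 (SE 0.60), and it was -2.07 without control replicate 2 and -3.15 without control replicate 1. Pxn and Parvb passed the filter on low counts only through the control libraries. The mesenchymal markers other than Vim were at their lowest in the treated libraries too (3.34 and 1.06 CPM, against 11.6 and 5.88 CPM in the controls), and their part in these differences was not tested.

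Zyx (chromosome 6, 42349630 to 42360213), a LIM protein of tensed adhesions, stood at 53.3 and 59.2 CPM in control cells and at 47.8 and 50.1 CPM after 1-nitropyrene. Its log2 fold change was -0.19 (SE 0.08), and the gap between the nearest libraries of the 2 groups was smaller than the gap between the controls. Ptk2 (chromosome 15, 73205102 to 73423280), the tyrosine kinase that gives focal adhesions their best-known signal, stood at 202.9 and 203.4 CPM in control cells and at 213.1 and 215.2 CPM after 1-nitropyrene. The difference was 0.08 on the log2 scale (SE 0.05), with a ratio of 0.991 to 1.12. Its relative Ptk2b stood, per length, at 0.0188 and 0.0135 of the Ptk2 level in the controls. After treatment it stood at 0.0198 and 0.00871 of it, so the groups overlapped.

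Cav1 (chromosome 6, 17306335 to 17341452), the coat protein of caveolae that also binds signalling receptors, stood at 93.2 and 84.6 CPM in control cells and at 62 and 55.4 CPM after 1-nitropyrene. Its log2 fold change was -0.61 (SE 0.07, ratio 0.594 to 0.723). The lower control was still well above the higher treated library. Leaving out 1 library at a time kept the value between -0.70 and -0.53.

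**Figure D2:**
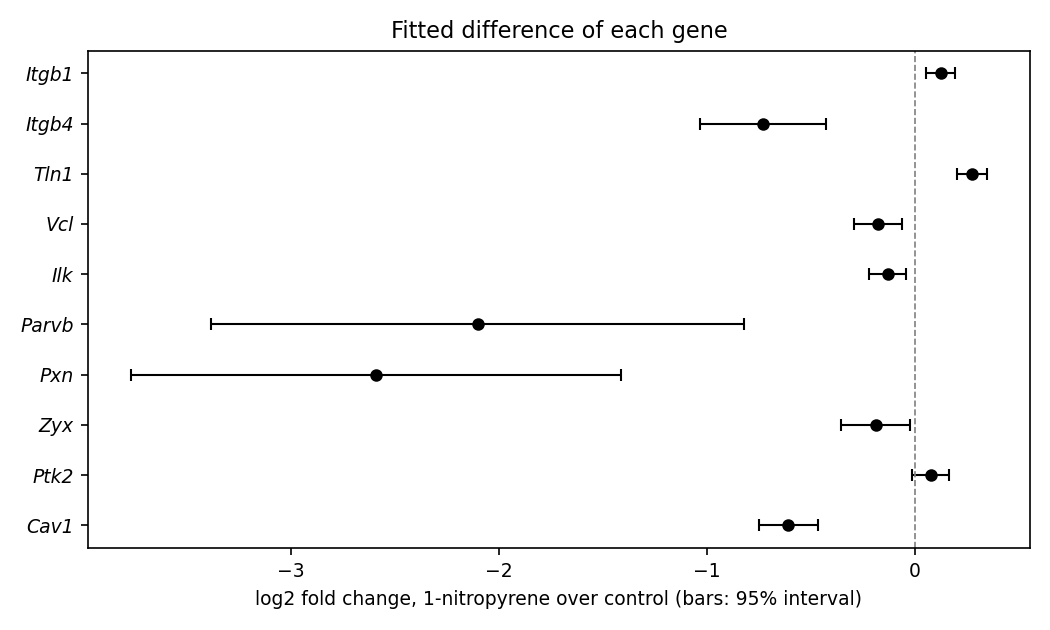
Fitted log2 fold change of each gene, 1-nitropyrene over control (points), with its 95% interval from edgeR (bars) and a dashed line at 0. Pxn (-2.59) and Parvb (-2.10) are farthest from 0 and have the widest intervals, and the interval of Ptk2 crosses 0.

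To compare levels between genes, CPM was divided by the kilobases of annotated exon. Itgb1 was highest at 100.9 CPM per kb over the 4 libraries, followed by Ilk at 81.2 and Tln1 at 38.7. Cav1 at 21.4, Ptk2 at 17.7, Vcl at 13.9 and Zyx at 9.76 CPM per kb came next, then Itgb4 at 2.33, Parvb at 0.254 and Pxn at 0.192. The libraries of Cav1 (16.1 to 27.1 CPM per kb) overlapped those of Ptk2 (17.2 to 18.2), and those of Parvb overlapped those of Pxn, so neither of these orders held in all libraries. Cav1 stood above Ptk2 in both controls and below it in both treated libraries. In 1-nitropyrene replicate 2 the gap was small, at 18 against 18.06 CPM per kb. The order also depends on the length used: by longest transcript Cav1 was at 26.9 and Ptk2 at 44.6 CPM per kb over the 4 libraries. With the longest transcript as the length, Ptk2 came to 44.6 CPM per kb, just below Tln1 at 45.2, because its annotated exons add up to 11803 bp and its longest transcript to 4678 bp.

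The other genes of integrin adhesion were taken from 10 lists by role, 170 genes without the members, of which 104 were tested. In edgeR 21 rose, 16 fell and 67 were not called, where 13.2% of all genes rose and 11.2% fell. Their median log2 fold change was 0.01, beside 0.00 over all genes. Without control replicate 2, 11 rose in place of 21, and DESeq2 called 9 higher and 7 lower, where it called 9.37% of the genes with an adjusted p higher and 5.76% lower.

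Of 24 further integrin subunits 14 had no counts in any library, among them Itgb6, the epithelial partner of Itgav, the collagen receptor chain Itga2 and the leukocyte chains of the list. Of the 6 tested, 3 fell and 1 rose in edgeR, and DESeq2 called 2 lower and 0 higher. Itga5, which with Itgb1 forms the classical fibronectin receptor, fell from 112.2 ± 1.99 to 68.3 ± 1.01 CPM (SD, n = 2, log2 difference -0.72 with SE 0.07, edgeR adjusted p = 2.72e-25). Itga3, which with Itgb1 binds laminin, fell from 76.4 ± 2.25 to 56.3 ± 0.867 CPM (log2 difference -0.43 with SE 0.08, edgeR adjusted p = 2.25e-07). For both genes the call was kept in all 12 alternative settings. The laminin receptor chain Itga7 fell by 0.81 on the log2 scale from 6.68 CPM (adjusted p = 0.0146), a call lost without control replicate 1 (adjusted p = 0.492) or 1-nitropyrene replicate 3 (adjusted p = 0.31). Itgb5, which pairs with Itgav to bind vitronectin, rose by 0.17 (adjusted p = 0.0424), a call lost in 9 of 12 settings, among them without control replicate 1 (adjusted p = 0.371), without control replicate 2 (0.0876) and without 1-nitropyrene replicate 3 (0.218).

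Itga5 and Itga3 were thus lower, and their common partner Itgb1 higher, in both treated libraries. Per length, Itga5 stood at 0.241 and 0.23 of the Itgb1 level in the controls and at 0.133 and 0.13 after treatment. Itga3 stood at 0.137 and 0.14 of it in the controls and at 0.0948 and 0.0926 after treatment. All alpha chains together reached 39.1 and 39.3 CPM per kb without and 26.3 and 25.9 CPM per kb with 1-nitropyrene. Most of these sums was Itga5 (means of 22.7 without and 13.8 with 1-nitropyrene) and Itga3 (13.4 and 9.86), so they largely repeat those genes. The sums stood at 0.405 of the Itgb1 level in the controls and 0.248 after treatment. These are ratios of RNA and say nothing of receptors at the cell surface.

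**Figure D3:**
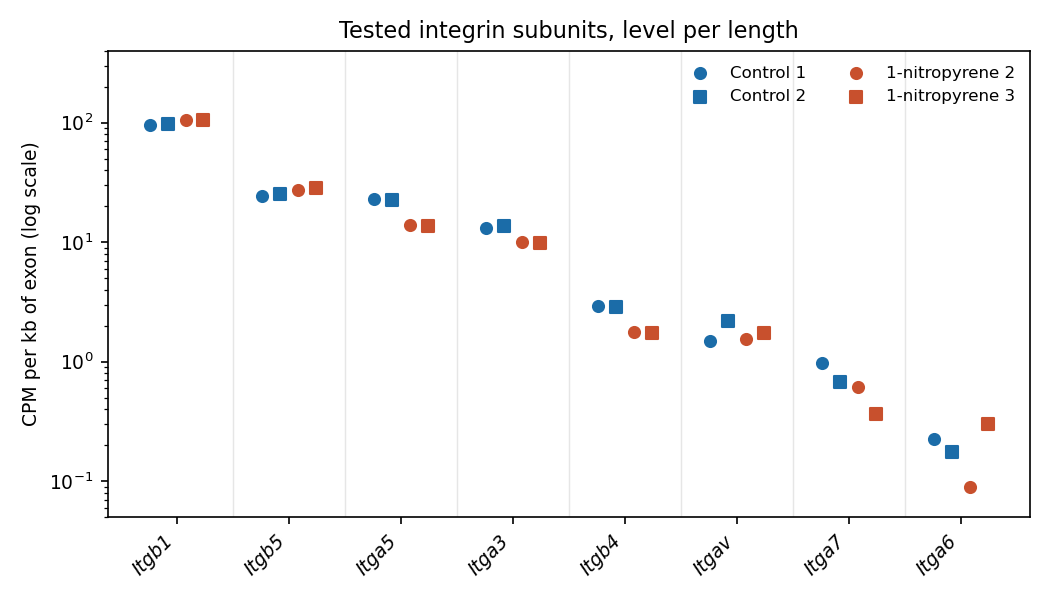
CPM per kb of annotated exon (log axis) of the 8 tested integrin subunits in each library, controls in blue and 1-nitropyrene in orange, ordered by mean level. Itgb1 is highest in every library, and Itga5, Itga3 and Itgb4 lie lower in both treated libraries than in both controls.

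Of the integrin ligands 9 were tested, and 2 rose and 3 fell in edgeR. DESeq2 called 2 higher and 1 lower. Fn1, fibronectin, the ligand of the Itga5 and Itgb1 receptor, rose from 184.3 ± 6.84 to 410.5 ± 17.6 CPM (log2 difference 1.15 with SE 0.04, edgeR adjusted p = 2.35e-164), opposite to Itga5. Fbn1, the microfibril protein fibrillin, rose by 0.64 (SE 0.12, adjusted p = 2.99e-06, edgeR), and 2442 bp of its exons lie opposite those of Gm9913. Of basement membrane genes, Nid1 (nidogen) fell from 117.9 ± 3.56 to 85.1 ± 5.16 CPM (log2 difference -0.48 with SE 0.06, edgeR adjusted p = 1.06e-12) and the laminin chain Lama5 by 0.36 on the log2 scale (adjusted p = 0.000858, edgeR; 0.0515 in DESeq2). The third that fell was the laminin chain Lamc1 (-0.18), named after its value was seen.

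Around talin, kindlin and vinculin, 1 of 7 tested genes rose and 0 fell in edgeR, and of the PINCH and parvin partners of Ilk 1 of 4 rose and 0 fell. At an unadjusted p under 0.05 it was 0 lower in both lists, and DESeq2 called 0 in either. Krit1, part of a complex that displaces integrin inhibitors, rose by 0.22 (adjusted p = 0.013) and Rsu1, which binds PINCH, by 0.21 (adjusted p = 0.0266, edgeR). Both calls were lost without control replicate 1 (adjusted p = 0.0632 and 0.0715), control replicate 2 (0.129 and 0.216) or 1-nitropyrene replicate 2 (0.0568 and 0.261). Fermt2, the kindlin of most adherent cells, was at 69.7 ± 5.28 and 74.4 ± 4.42 CPM (adjusted p = 0.453, edgeR), and the epithelial kindlin Fermt1 had 0 counts. The small GTPase genes Rap1a and Rap1b, which bring talin to integrins, were not called either (adjusted p = 0.161 and 0.286, edgeR), though Rap1a was called lower without scaling factors (0.0369) and at a mean of at least 10 CPM (0.0407). The PINCH gene Lims1 was at 18.6 ± 1.55 and 23.2 ± 0.632 CPM (adjusted p = 0.0803, edgeR). Ilkap, a phosphatase that binds Ilk, was not called (adjusted p = 0.377, edgeR).

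Relatives of paxillin and zyxin were tested for 13 genes, of which 3 rose and 0 fell in edgeR (0 lower at an unadjusted p under 0.05, and 1 higher and 0 lower in DESeq2). Tgfb1i1 (Hic-5), the paxillin relative, rose from 16.7 ± 2.53 to 21.9 ± 2.23 CPM (adjusted p = 0.0414, edgeR), opposite to Pxn. This call was lost in 8 of 12 settings, among them without control replicate 2 (adjusted p = 0.343) and 1-nitropyrene replicate 3 (adjusted p = 0.336). Pxn stood at 0.0644 and 0.17 of Tgfb1i1 per length in the controls and at 0.0116 and 0.0136 after treatment. Ajuba, a LIM protein that also restrains Hippo kinases, rose from 88.8 ± 5 to 117.1 ± 1.83 CPM (log2 difference 0.39 with SE 0.06, edgeR adjusted p = 7.69e-09), and its relative Wtip rose by 0.49 (adjusted p = 0.0138, edgeR), lost without control replicate 2 (0.155) or 1-nitropyrene replicate 2 (0.114). Trip6, the zyxin relative, was at 51.8 ± 6.23 and 48.2 ± 0.744 CPM (adjusted p = 0.557, edgeR), and Pdlim1, which links LIM proteins to actinin, was at 12.2 ± 0.427 and 15.2 ± 1.96 CPM (adjusted p = 0.148, edgeR).

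In the signalling list around Ptk2, 1 of 26 tested genes rose and 4 fell in edgeR. DESeq2 called 0 higher and 1 lower there, with Pak1, Grb2 and Crk not called (adjusted p = 0.0612, 0.0819 and 0.0774). The Src-family kinase gene Fyn fell from 119 ± 1.94 to 96.3 ± 3.46 CPM (log2 difference -0.30 with SE 0.06, edgeR adjusted p = 9.37e-06) and kept its call in all 12 settings. The adaptor Grb2 fell by 0.30 (adjusted p = 0.0028, edgeR; 0.107 without control replicate 2) and the adaptor Crk by 0.10 (adjusted p = 0.00865; 0.18 without control replicate 1 and 0.192 without 1-nitropyrene replicate 2). Src itself was the other gene that fell (-0.38, adjusted p = 0.0143, edgeR) and is named after its value was seen. The kinase gene Pak1, an effector of Rac and Cdc42, rose by 0.51 (adjusted p = 0.000524, edgeR; 0.15 without 1-nitropyrene replicate 2).

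Among actin linkers at adhesions 5 of 15 tested genes rose and 2 fell in edgeR. DESeq2 called 3 of them higher and 1 lower, and 3 higher and 1 lower among the contractility genes below. Actn4 (alpha-actinin) rose from 109.9 ± 3.01 to 202.5 ± 0.87 CPM (log2 difference 0.88 with SE 0.05, edgeR adjusted p = 5.55e-60), and 316 bp of its exons lie opposite those of Capn12. The filamins, which crosslink actin and bind beta tails, rose too, Flnc from 43.6 ± 3.33 to 72.2 ± 2.52 CPM (adjusted p = 1.52e-16) and Flna from 2273 ± 10.0 to 2659 ± 0.954 CPM (adjusted p = 9.24e-23, edgeR). Enah, which elongates actin at adhesions, fell from 51.9 ± 2.28 to 39.3 ± 2.2 CPM (log2 difference -0.41 with SE 0.09, edgeR adjusted p = 7.87e-05). Of 15 contractility genes 6 rose and 3 fell: the small GTPase genes Cdc42, Rac1 and Rhoa rose by 0.28, 0.19 and 0.12 on the log2 scale (edgeR adjusted p = 1.96e-17, 3.29e-05 and 0.000161; 2309 bp of Rac1 lie opposite Daglb), and Limk1, which restrains cofilin, fell by 0.61 (adjusted p = 3.04e-05, edgeR; 0.0519 without control replicate 1 and 0.086 without 1-nitropyrene replicate 2).

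Cavin1, which builds the caveolar coat with Cav1, fell from 316.3 ± 10.3 to 273.1 ± 9.23 CPM (log2 difference -0.21 with SE 0.04, edgeR adjusted p = 1.69e-06), and kept its call in all 12 settings. Cav1 stood at 0.3 and 0.285 of the Cavin1 level per length in the controls and at 0.231 and 0.216 after treatment. Of the 6 caveolar genes tested 1 rose and 1 fell in edgeR, and DESeq2 called 0 higher and 1 lower. The one that rose, Ehd2, an ATPase at the neck of caveolae, was at 3.89 and 6.69 CPM (adjusted p = 0.0238, edgeR), a call lost without control replicate 1 (0.127), control replicate 2 (0.107) or 1-nitropyrene replicate 3 (0.252). Pacsin2, which bends membrane at caveolae, and the receptor gene Ror1 were not called (adjusted p = 0.587 and 0.571, edgeR). Cav2 had 5, 2, 0 and 1 counts and was not tested, and Cav3 had none.

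Hemidesmosome genes other than Itgb4 showed no call in edgeR, with 0 of 4 tested genes at an unadjusted p under 0.05, and none in DESeq2. Plec (plectin), which links Itgb4 to keratins, was at 64.8 ± 0.815 and 70.6 ± 13 CPM (adjusted p = 0.231, edgeR), and was called higher without 1-nitropyrene replicate 2 (log2 difference 0.30, adjusted p = 0.0036). The tetraspanin Cd151 was at 87.6 ± 1.42 and 83.9 ± 2.02 CPM (adjusted p = 0.532, edgeR), and the plakin Dst at 12.5 ± 0.593 and 12.2 ± 2.85 CPM (adjusted p = 0.925, edgeR). The laminin chain Lama3 and the basal keratin Krt14 had 0 counts, Krt5 had 10 and Lamb3 7 in all 4 libraries together.

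**Figure D4:**
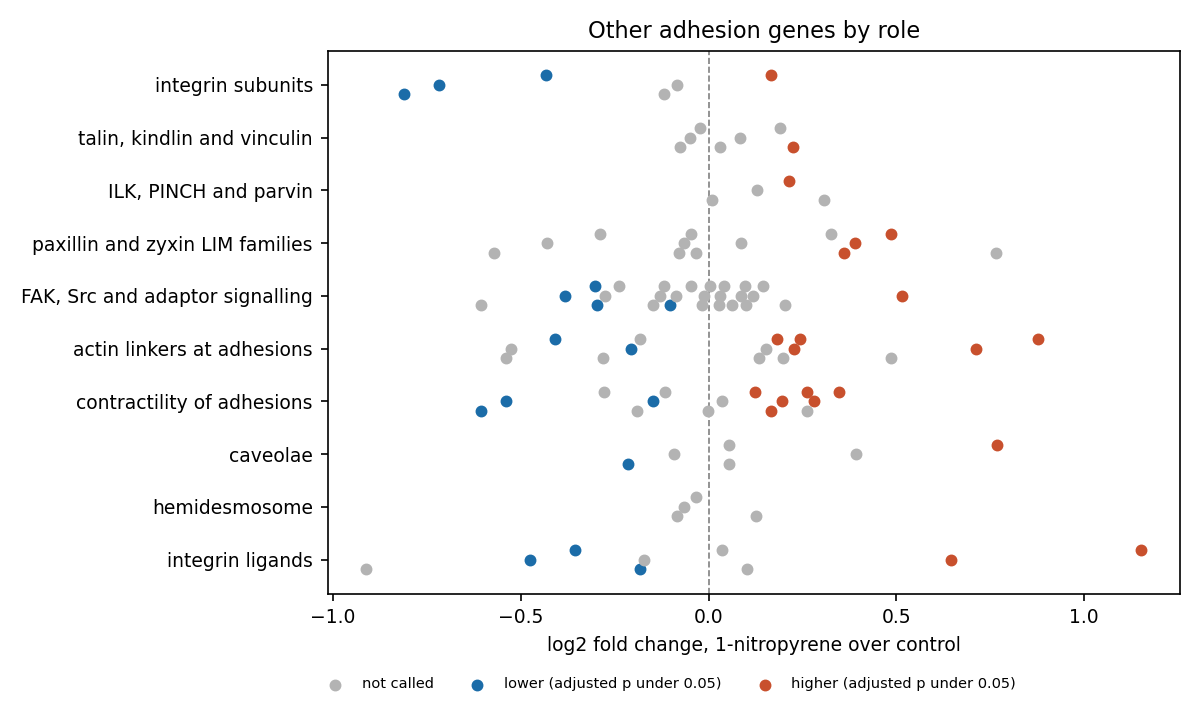
Log2 fold change, 1-nitropyrene over control, of the 104 tested adhesion genes other than the 10 members, by role, with 1 point per gene and list (Itga6 stands in 2 lists). Orange points rose, blue points fell and grey points were not called, and Fn1 (1.15) and Actn4 (0.88) lie farthest to the right.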

How the data were processed

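The authors deposited a table of unnormalized read counts for Ensembl genes, in which each library is a column. The libraries were made from polyadenylated RNA with a kit that keeps strand, per the labels' protocols. In the submitters' processing notes, HISAT2 2.1.0, featureCounts 1.6.3 and DESeq2 are listed with the GRCm38 (mm10) build, but not what each was used for. Annotation version, strand option and multi-mapping rule were not given in the sources used here. Overlapping or near-identical genes may therefore hold each other's reads.

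Identifiers were matched to GENCODE M21 (53360 of 53465). Genes were filtered with filterByExpr, scaled with TMM factors (0.989 to 1.01) and tested with edgeR 4.0.16's quasi-likelihood method (legacy set to FALSE) in R 4.3.3, with an intercept and the treatment. All 7738 genes shared 1 dispersion (a biological coefficient of variation of 2.34%), and the quasi-likelihood spread followed the gene's mean level alone (infinite prior degrees of freedom), so a gene's own replicate spread does not enter its p. Adjusted p-values are Benjamini-Hochberg over all 7738 genes, tests are two-sided, standard errors were derived from each log2 value and its F statistic, and intervals are at the 95% level. Replicates differed by more than sampling noise (chi-square per degree of freedom 1.62 between controls and 2.05 between treated libraries). On simulated data with 7738 genes for the same comparison, the fit recovered 39.0% of changes of 1.25-fold, 64.4% of 1.5-fold and 91.5% of 2-fold. Of its calls there 1.59% were false. The simulation held 82, 59 and 59 changed genes at these folds, where 1894 genes were called in the data. Its false share is therefore not the error rate of the calls given here, and its recovered shares are not those of these data. Alternatives used limma 3.58.1 and DESeq2 1.42.0.

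The members and lists were chosen with earlier results of these data known. Of each list the 4 tested genes with the smallest p are named, with the top call in each direction and relatives of the members at 20 CPM or more. Other genes named are those at or near 0 counts, partners of the members, and the genes marked as named after their values were seen.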

Additional observations from a re-analysis of the deposited data

How the results depend on the processing

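No paired analysis was possible because the groups share only 1 replicate number. Under 12 alternative settings (RLE or no scaling factors, no filter or a mean of at least 10 CPM, DESeq2, limma-voom, a robust fit, an adjusted p under 0.01, and each library left out) the 10 members kept their direction wherever they were tested. For the fits with 1 library left out this was near fixed in advance, because no member had groups that overlapped. The robust fit and the stricter threshold reuse the same log2 values. The kept directions are therefore no support for a difference. DESeq2 called 514 genes higher and 316 lower, and 9 and 7 of the other adhesion genes. Of the 8 members with an adjusted p in DESeq2, it called 1 higher (Tln1) and 2 lower (Itgb4 and Cav1). Genes called lower fell to 532 without a filter and 568 at an adjusted p under 0.01. With 1 library left out, genes called lower numbered 511 to 647, members called higher 1 to 2 and lower 3 to 5, and other adhesion genes called higher 11 to 18 (11 without control replicate 2). Without scaling factors 18 of the other adhesion genes were higher and 20 lower. Of 27 named adhesion genes that were called, 15 kept the call in all settings.

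Signs turned for 6 genes without a call in the fit of all libraries. Parva was -0.021 without scaling factors and -0.014 at a mean of at least 10 CPM, and with 1 library left out it ran from -0.027 to 0.032. Over the same 4 settings Dst ran from -0.30 to 0.18, Itga6 from -1.19 to 0.54, Pacsin2 from -0.22 to 0.010, Plec from -0.075 to 0.30 and Trip6 from -0.22 to 0.024. With the longest transcript as the length the levels in CPM per kb were 108 for Itgb1, 97.8 for Ilk, 45.2 for Tln1, 44.6 for Ptk2, 26.9 for Cav1, 21.6 for Vcl, 16.5 for Zyx, 2.64 for Itgb4, 0.418 for Pxn and 0.296 for Parvb. Pxn then stood above Parvb. The depth limits Pxn and Parvb most, at 3 and 4 counts in the treated libraries.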
